A study of Mus musculus with 2 samples.

Results

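The genes described here are the mouse splicing factor and heterogeneous nuclear ribonucleoprotein (hnRNP) genes, as transcribed in C2C12 myoblasts. The rule that chose them uses names and no measured value, and takes every RefSeq entry whose gene symbol begins with Hnrn, with Srsf and a number, with Sf3a or Sf3b, with Snrp or Snrnp, or with Prpf and a number, leaving out Snrpn. It gave 82 entries of 70 gene symbols, out of 24165 entries of 20128 symbols, or 0.339% of the entries. They comprise 27 hnRNP entries, 13 entries of SR proteins (Srsf), 8 of the SF3A and SF3B complexes, 19 of small nuclear ribonucleoprotein (snRNP) proteins (Snrp and Snrnp) and 15 of pre-mRNA processing factors (Prpf).

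Introns are removed from nascent transcripts by the spliceosome, which is assembled from snRNPs, each a small nuclear RNA with a ring of Sm proteins (or, for U6, of the related LSm proteins) and further proteins of its own. U1 recognises the 5' splice site and U2 the branch point, the latter through SF3A and SF3B, and the tri-snRNP of U4, U6 and U5 then joins to form the catalytic centre. SR proteins and hnRNPs coat the nascent RNA itself, and they promote or repress the use of particular splice sites, often in opposition to each other.

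C2C12 cells are an established mouse myoblast line, grown from the precursor cells that fuse into muscle fibres. Nascent transcription was measured by GRO-seq, in which polymerases already engaged on DNA run on in isolated nuclei with bromouridine and the labelled RNA is captured and sequenced. There was a single group of untreated cells at 80% confluency, with 2 replicate libraries that the authors pooled into 1 value for each RefSeq entry. That value, gene activity in RPKmM, is the density of sense-strand reads over the mappable bases, scaled like RPKM to gene length and to the total of reads, from 1 kb after the transcription start to the end of the gene, and an entry whose read density was not above that of gene deserts bears the word Inactive. Because a value is pooled, no SD, test or check between replicates was possible for any level or ratio below, and all are descriptions of these pooled libraries. The values are rounded to 2 decimals and the table carries no read numbers, so the depth behind each value was not worked out here. GRO-seq reads show polymerases on the gene, and they do not measure mature mRNA or protein.

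The label of the cells was checked against marker genes. The myoblast markers Des, Itga7, Cdh15, Myf5, Myod1 and Pax7 ranged from 0.55 (Pax7) to 72.45 RPKmM (Des), while Ptprc and Epcam, markers of blood and epithelial cells, were listed as inactive and the endothelial marker Pecam1 stood at 0.01. Sox2, a marker of stem and neural cells, was listed as active at 0.23. Genes of differentiated muscle were also active, with Acta1 at 6.85, Myog at 2.39 and Ckm at 0.2. Over all 16957 active entries the median was 0.87 RPKmM, with quartiles of 0.22 and 1.99.

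Nearly every splicing gene was transcribed, and most stood far up the range. Of the 82 entries 81 (98.8%) were active, against 70.2% of the whole table, and the exception was Srsf12. The active entries had a median of 4.95 RPKmM, with quartiles of 2.06 and 11.2, which was 5.69 times the median of all active entries. An activity of 1 RPKmM or above was listed for 76 entries (92.7%), against 32.3% of the table. At 10 RPKmM or above there were 28 (34.1%), against 2.03%, and these made up 5.71% of all entries at that level. At 100 or above there were 2, Srsf1 and Hnrnpa2b1, or 2.44% against 0.0993%. By gene symbol, 22 of the 401 symbols at 10 RPKmM or above were splicing genes. Only 3 active entries fell below the median of all active entries, namely Prpf4, Sf3b6 and Snrnp25.

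The families did not share this level equally. The 27 hnRNP entries had a median of 14.05 RPKmM and 20 of them reached 10, and the 12 active SR entries had a median of 8.22 with 5 at 10 or above. The entries of the general machinery lay lower, with a median of 4.08 for SF3A and SF3B, 2.02 for Snrp and Snrnp and 1.85 for Prpf, and a single entry of each reached 10. Taken as groups, the active hnRNP and SR entries had a median of 11.2 RPKmM, 12.9 times that of all active entries, and the 42 others had a median of 2.10, or 2.41 times. The 28 entries at 10 or above were thus 25 of hnRNP and SR genes and 3 of the others, which were Prpf8, Sf3b4 and Snrnp70.

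**Figure D1:**
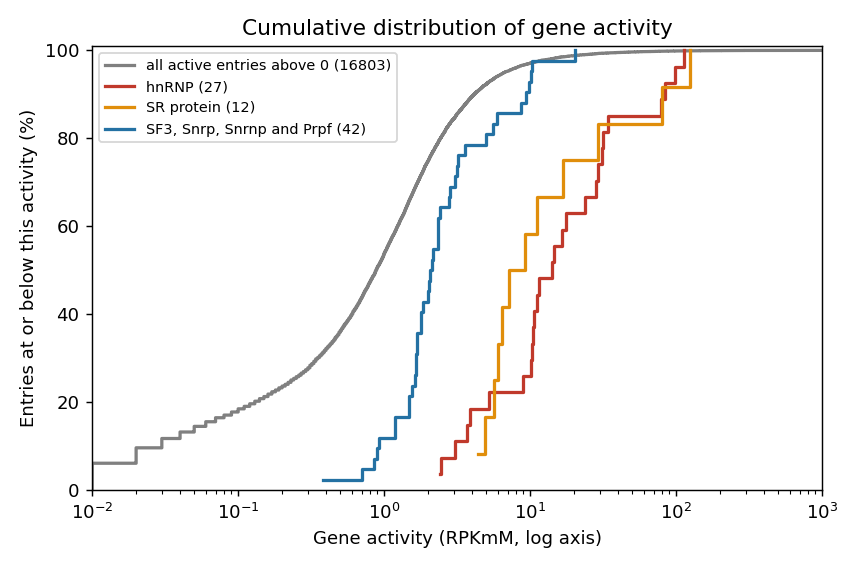
Cumulative distribution of gene activity, with activity in RPKmM on a log axis against the percentage of entries at or below it, for all active entries above 0 (grey), hnRNP (red), SR (orange) and the SF3, Snrp, Snrnp and Prpf entries (blue). The blue curve crosses its middle near 2.10 RPKmM and reaches 20.38 at its end, while the red curve crosses near 14.05 and ends at 113.32.

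The promoters of the most active member of the hnRNP, SR and snRNP groups and of the least active member are shown here, because they span the range of activity, from Hnrnpa2b1 and Srsf1 at the top, through Prpf8 of the U5 snRNP and Snrnp70 of the U1 snRNP, to Snrnp25. The promoter of Srsf12, the inactive gene, is added and was picked with its value known. Each run holds the 150 bases upstream of a RefSeq start, 5' to 3' on the strand of the gene, from the RefSeq promoter table of GRCm38.p6 and placed in NCBIM37 (mm9) by an exact match. Capitals mark matches to the motifs searched, and those found in these runs are a CCAAT box (CCAAT, or ATTGG on the other strand), a GC box (GGGCGG or CCGCCC) and the NRF1 palindrome of 10 bases.
Hnrnpa2b1 promoter, chr6:51419894-51420043 (minus strand): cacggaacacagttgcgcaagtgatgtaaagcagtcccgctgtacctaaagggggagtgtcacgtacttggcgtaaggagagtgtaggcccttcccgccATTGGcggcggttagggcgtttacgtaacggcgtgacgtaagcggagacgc
Srsf1 promoter, chr11:87860725-87860874 (plus strand): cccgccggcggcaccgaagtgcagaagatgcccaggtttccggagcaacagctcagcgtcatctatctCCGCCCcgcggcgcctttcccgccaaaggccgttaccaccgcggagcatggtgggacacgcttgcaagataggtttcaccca
Prpf8 promoter, chr11:75300129-75300278 (plus strand): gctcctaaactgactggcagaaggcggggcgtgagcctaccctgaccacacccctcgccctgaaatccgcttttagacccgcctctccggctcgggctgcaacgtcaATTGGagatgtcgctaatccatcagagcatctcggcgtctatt
Snrnp70 promoter, chr7:52651113-52651262 (minus strand): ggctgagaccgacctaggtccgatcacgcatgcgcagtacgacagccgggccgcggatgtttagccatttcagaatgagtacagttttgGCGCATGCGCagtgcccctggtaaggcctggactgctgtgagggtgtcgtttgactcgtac
Snrnp25 promoter, chr11:32105265-32105414 (plus strand): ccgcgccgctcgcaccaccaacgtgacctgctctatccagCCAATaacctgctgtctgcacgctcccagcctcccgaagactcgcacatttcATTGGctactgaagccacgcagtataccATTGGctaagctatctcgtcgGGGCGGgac
Srsf12 promoter, chr4:33296097-33296246 (plus strand): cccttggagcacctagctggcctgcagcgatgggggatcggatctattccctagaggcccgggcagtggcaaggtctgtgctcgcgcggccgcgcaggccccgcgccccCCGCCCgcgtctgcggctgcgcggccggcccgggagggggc

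None of these 6 runs held a TATA box, written as TATAAA. The runs of Hnrnpa2b1 and Prpf8 held a CCAAT box on the reverse strand and no GC box, that of Srsf1 held a GC box on the reverse strand, and that of Snrnp70 held an NRF1 site. The Snrnp25 run, of the least active gene, held 3 CCAAT boxes and a GC box. The Srsf12 run, of the inactive gene, had the highest G+C content of the 6, at 76.7%, against 64% for Srsf1 and 58% for Hnrnpa2b1. A match describes the letters only, and no factor binding was measured here.

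Over windows of 300 bases (250 before the start and 50 after it) the table gave 79 promoters for 62 of the 70 symbols, and those without one include Hnrnpll, Hnrnpul2, Prpf18, Sf3b4, Snrnp40, Snrpb and Snrpd1. Their median G+C content was 60% with 25 CpG dinucleotides, beside 52.7% and 7 over all 32851 promoters of the table and 60.3% and 19 over the 13423 promoters of genes with an active entry. GC boxes were in 69.6% of member promoters, 35.7% of all and 60.1% of those of active genes. The ETS core (CGGAAG, either strand), which ETS transcription factors recognise, was in 51.9% of member promoters, 16.9% of all and 28.1% of those of active genes. CCAAT boxes were in 45.6%, 37.4% and 37.4%, and TATA boxes in 8.86%, 13.6% and 7.45%. NRF1 sites were in 2.53% of member promoters (2 promoters), 0.971% of all and 1.89% of those of active genes, and a ZBTB33-type palindrome in 1.27% (1 promoter), 0.466% and 0.916%. A YY1-type site was in 1.27% (1 promoter), 0.633% and 1.37%, and a ZNF143-type site in none of the members, 0.286% of all and 0.596% of those of active genes. These last 4 motifs are too rare among the members for a comparison. The motifs can overlap each other, as the GC box and ETS core do where GGGCGG on the reverse strand runs into CGGAAG.

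The less active machinery genes and the more active RNA coat genes also differed in these letters. The 41 promoters of hnRNP and SR genes had a median G+C content of 68.3% and 31 CpG, with a GC box in 82.9% and an ETS core in 39%. The 38 promoters of snRNP, SF3 and Prpf genes had 57.7% G+C and 23 CpG, with a GC box in 55.3% and an ETS core in 65.8%. Several promoters can belong to the same gene and overlap, so these shares were not tested.

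By role, the A/B group of hnRNPs had the highest median, at 31.57 RPKmM over 6 entries. These proteins hold a pair of RNA recognition motifs and a glycine-rich tail, and they commonly repress the use of exons. Hnrnpa2b1 (chr6:51410433-51419893, minus strand) stood at 113.32 RPKmM and ranked 21 of the 16957 active entries. Hnrnpa1 (chr15:103070945-103074445, plus strand), the best studied antagonist of SR proteins, had its coding RefSeq entry at 29.18 and a non-coding entry at 83.3. Hnrnpab was at 33.97, Hnrnpa0 at 28.34 and Hnrnpa3 at 23.77, so that every entry of the group exceeded 10. The D group, AU-rich element binding proteins that also act on mRNA stability, had Hnrnpdl at 30.89 and Hnrnpd at 10.25.

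The F/H group, whose proteins bind runs of G, ranged from 2.47 to 78.46. Hnrnph1 (chr11:50190492-50200030, plus strand) was at 78.46 and ranked 35, and Hnrnph3 was at 17.63. The 4 entries of Hnrnpf lay at 10.16, 14.05, 14.49 and 31.66. Hnrnph2, an X-linked gene whose protein closely resembles that of Hnrnph1, was at 2.47, the lowest of the group. Hnrnph1 was thus listed well above its X-linked relative in activity per length. The U group showed a like contrast, since Hnrnpu (chr1:180253205-180267928, minus strand), a nuclear matrix protein also called SAF-A, reached 98.07 and ranked 25. Its relatives Hnrnpul2 at 5.24 and Hnrnpul1 at 3.72 and 3.07 lay much lower.

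The other hnRNP genes ranged from 2.41 to 16.48. Hnrnpm, which regulates alternative exons, was at 16.48. The 3 entries of Hnrnpk, a poly(C)-binding protein with KH domains, were at 11.46, 11.08 and 10.67 and so differed little. Hnrnpl, which binds CA-rich RNA, was at 10.47 and its paralog Hnrnpll at 3.9. Hnrnpc, the uridine-binding core protein of hnRNP particles, was at 8.97. Hnrnpr, which like its relative Syncrip works in mRNA transport and translation, was the lowest hnRNP, at 2.41, and still 2.77 times the median of all active entries.

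SR proteins carry RNA recognition motifs and a tail rich in arginine and serine, and they bind exonic enhancers. Srsf1 (chr11:87860875-87867257, plus strand), the founding member of the family, was the most active of all splicing genes at 125.34 RPKmM, and it ranked 18 among active entries. Srsf6 (chr2:162757264-162762857, plus strand) followed at 80.24 and Srsf5 at 29.01. Srsf3, one of the smallest members, was at 16.77 and Srsf7 at 11.2, and below 10 stood Srsf2 at 9.22, Srsf9 at 6.39 and Srsf4 at 5.68. Srsf10, which is known as a repressor when it loses its phosphates, had entries at 7.22 and 6.07. Srsf11 had the lowest active entries of the family, at 4.88 and 4.42. Srsf12 (chr4:33295966-33320315, plus strand), the closest relative of Srsf10, was the inactive entry, and it did not pass the authors' comparison with gene deserts, whereas the 12 active SR entries all lay above the median of all active entries.

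**Figure D2:**
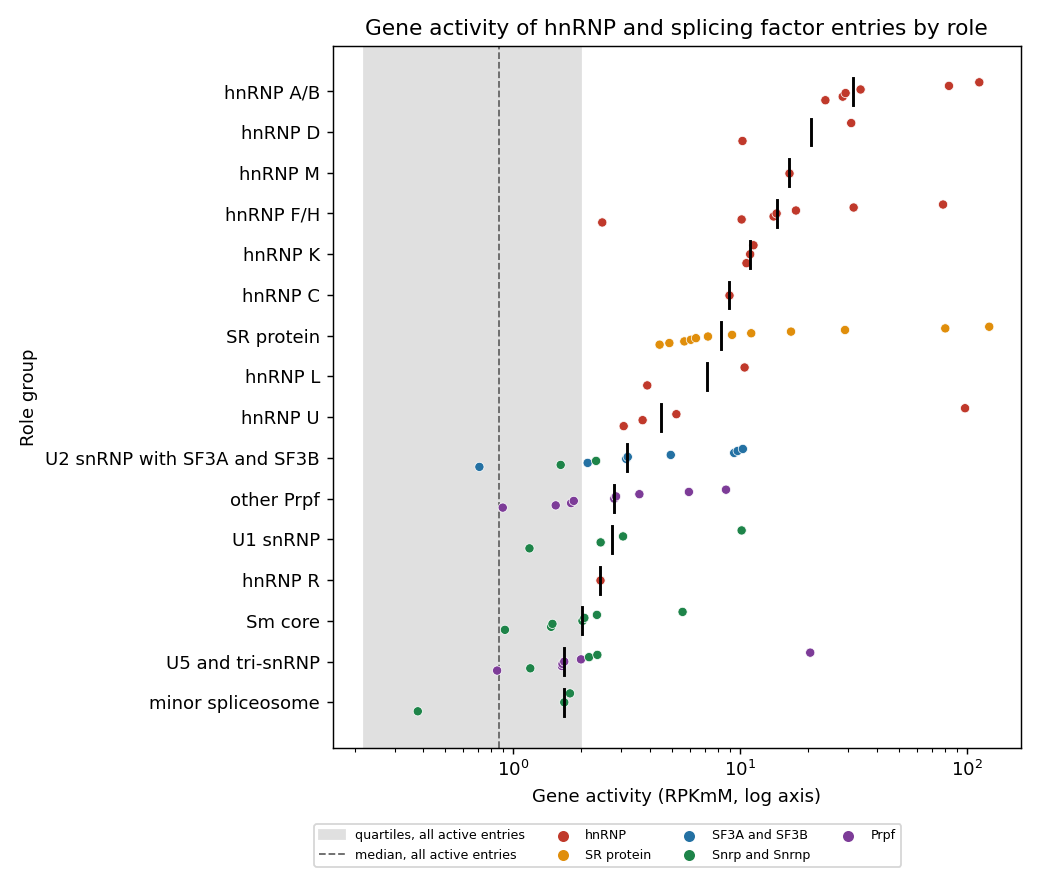
Gene activity of each active entry (points, RPKmM on a log axis) in 16 role groups, coloured by family, with the median of a group as a black bar, the median of all active entries as a dashed line and their quartiles as a grey band. The hnRNP A/B group is at the top with a median of 31.57 and the minor spliceosome and the U5 and tri-snRNP group share the lowest median, 1.68, and Prpf8 at 20.38 lies apart from the other U5 and tri-snRNP entries.

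Among the 16 role groups ordered by median activity, the 8 highest were all hnRNP or SR groups, of 10 such groups. This order depends on how the genes were grouped. The medians of hnRNP M, C and K rest on 1 gene each, and those of hnRNP D and L on 2 genes each. Next came hnRNP U, with a median of 4.48, above every group of snRNP proteins and their partners. The hnRNP R group, a single gene at 2.41, lay among those groups. In U1, Snrnp70, which binds the U1 RNA, was at 10.16, Snrpa had entries at 3.05 and 2.43, and Snrpc, which steadies the pairing with the 5' splice site, was at 1.18. In U2 with SF3A and SF3B, Sf3b4 at 10.29, Sf3b1 at 9.76 and Sf3a3 at 9.42 were the highest. Sf3b1 encodes the large scaffold that holds the branch point adenosine and is often mutated in blood malignancies. Sf3b3 was at 4.95, Sf3a2 at 3.2, Sf3b2 at 3.15, Snrpa1 at 2.32, Sf3a1 at 2.13 and Snrpb2 at 1.62. Sf3b6, a small subunit that lies next to the branch point, was the lowest at 0.71. Subunits of the same complex therefore differed in activity across the range from 0.71 to 10.29.

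The Sm proteins form a ring of 7 different subunits around the spliceosomal RNAs other than that of U6 and its minor counterpart, and their genes lay close together except at the top. Snrpb, which encodes SmB, was at 5.58. Snrpf (SmF) was at 2.34, Snrpd1 at 2.06, Snrpe at 2.02, Snrpd3 at 1.49 and Snrpd2 at 1.47. Snrpg (SmG) was the lowest, at 0.92. So 6 of the 7 lay between 0.92 and 2.34, and the group median of 2.02 was 2.32 times that of all active entries.

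In the U5 and tri-snRNP group Prpf8 (chr11:75300279-75322951, plus strand), the scaffold of the catalytic centre and one of the most conserved nuclear proteins, stood out at 20.38 and ranked 200. Snrnp200 (Brr2), the helicase that unwinds U4 from U6, was at 2.35, and Snrnp27 was at 2.16. Prpf6, Prpf31 and Prpf3, which hold the tri-snRNP together, were at 1.99, 1.68 and at 1.65 and 1.64, and Snrnp40, a WD-repeat protein of U5, was at 1.19. Prpf4, the partner of Prpf3, was the lowest at 0.85. Prpf8 was the only entry of the group at 10 or above. PRPF8, PRPF31, PRPF3, PRPF6 and SNRNP200 are known as human genes of dominant retinitis pigmentosa, and in these myoblasts their mouse counterparts ranged from 1.64 to 20.38.

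Of the other Prpf genes, Prpf38b was at 8.67 and Prpf39, a U1-associated factor, at 5.95. Prpf40b, another U1-associated factor, was at 2.79. Prpf4b, a kinase of the spliceosome, was at 2.84, Prpf19, a ubiquitin ligase needed for activation, at 1.85 and 1.54, Prpf38a at 1.8 and Prpf18, which acts in the second catalytic step, at 0.9. The minor spliceosome, which removes a rare class of introns, had Snrnp35 at 1.78, Snrnp48 at 1.68 and Snrnp25 (chr11:32105415-32108984, plus strand) at 0.38. Snrnp25 was the least active entry of the name rule above the authors' threshold and lay above 31.6% of all active entries.

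A symbol with several RefSeq entries shows whether the value depends on the stretch that is read. Of 9 splicing symbols with several active entries, 2 (22.2%) differed by 1.5 times or more, beside 22.1% of 2273 such symbols in the table, so this share was at the background. The differing symbols were Hnrnpf, by 3.12 times, and Hnrnpa1, by 2.85 times, and the other 7 differed by 1.01 (Prpf3) to 1.26 times (Snrpa). RefSeq gives Hnrnpf 4 starts on chromosome 6, at 117850358, 117856800, 117857822 and 117867312. The annotated end of the gene, 117875639, was taken as the end for all 4. Counted from 1 kb after each start, the gene bodies are 24.3, 17.8, 16.8 and 7.33 kb. The table does not pair the values with the starts. If higher values are paired with shorter bodies, activity times length comes to 247, 251, 244 and 232 RPM, the reads expected on the gene body on the scale of RPKM without the division by length, and in the reverse order it comes to 769, 259, 236 and 74.5. The first pairing gives nearly equal products, but which pairing holds was not tested.

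Annotated positions on mm9 were found for all 70 symbols, 3 of them through an older name. Splicing genes were compact, with a median span of 13.7 kb over active entries against 25.8 kb over all active entries with a span. Several active hnRNP and SR genes were short and mostly exonic. Srsf1 spans 6.38 kb and 89.5% of it is exonic, Hnrnpa0 spans 2.68 kb with a single exon, and Srsf2 spans 3.19 kb with 92.7% exonic, while Hnrnpu spans 14.7 kb. Across entries, the Spearman correlation of activity with span was -0.547 over the 39 hnRNP and SR entries, 0.143 over the 42 others, -0.179 over all 81 and -0.0453 over 16357 active entries of the table. These correlations are across genes of the same pooled libraries, every entry was given the span of its whole gene although starts can differ, as in Hnrnpf, and they are given as descriptions. Without Hnrnpf the correlation was -0.588 over 35 hnRNP and SR entries and -0.218 over all 77.

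The activity of hnRNP and SR genes exceeded that of the table in each span class that held any. For genes under 5 kb, the median was 28.76 RPKmM over 4 hnRNP and SR entries against 0.795 over all active entries. From 5 to 10 kb it was 30.89 over 11 entries against 0.83, from 10 to 20 kb 10.88 over 10 entries against 0.89, and from 20 to 50 kb 7.33 over 14 entries against 0.99. The last class holds the 4 Hnrnpf entries by the span of the whole gene, and without them its median was 4.65 over 10 entries. The snRNP, SF3 and Prpf entries stayed lower throughout, with 2.39 from 5 to 10 kb, 1.74 from 10 to 20 kb and 2.57 from 20 to 50 kb.

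**Figure D3:**
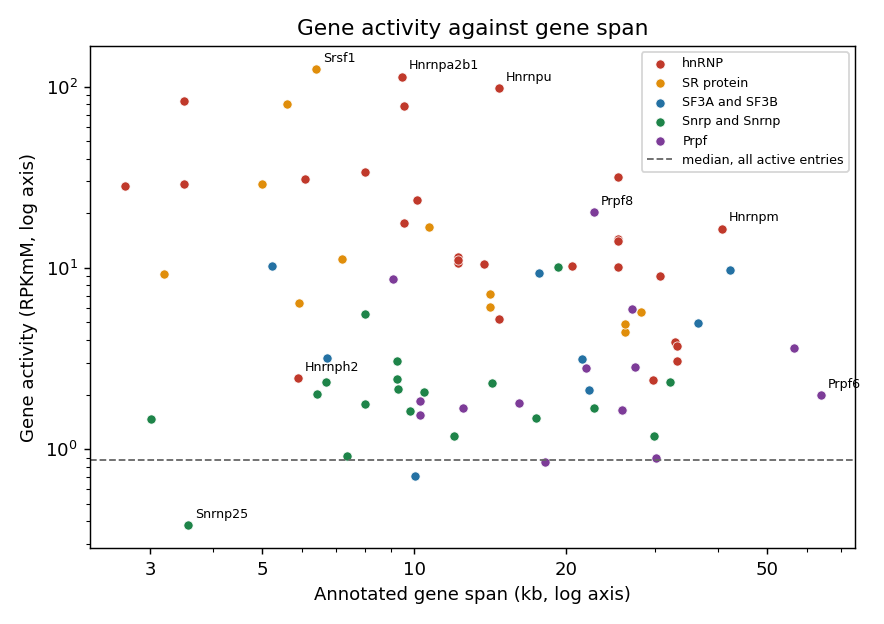
Gene activity (RPKmM, log axis) against annotated gene span (kb, log axis) for each active entry, coloured by family, with the median of all active entries as a dashed line. Srsf1 at 125.34 and Hnrnpa2b1 at 113.32 lie among genes under 10 kb, while Snrnp25 at 0.38 is as short and lies at the bottom.

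Because activity is per length, a long gene of moderate activity can carry as many polymerases as a short, very active one. Activity times the length of the gene body, with all bases taken as mappable, gave 1346 RPM for Hnrnpu, 958.8 for Hnrnpa2b1, 674.7 for Srsf1, 670 for Hnrnph1 and 653.1 for Hnrnpm, which spans 40.6 kb. Prpf8 came to 441.6 and Sf3b1 to 403.2, ahead of Srsf6 at 368.6, and Snrnp25 came to 0.977. Hnrnpf is left out of this order, because its estimate depends on the pairing of values and starts and was 769 with the highest value on the longest body, as used in the sum that follows, and 232 to 251 with higher values on shorter bodies. By this estimate the splicing genes held 1.12% of all gene body reads with 0.52% of the symbols in the sum (69 of 13265), and hnRNP and SR genes held 75.3% of the reads of splicing genes. With the least active entry of each symbol these shares were 1.15% and 73.6%.

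Many splicing genes share a promoter region with a gene on the other strand. By the annotated gene starts, a protein-coding gene of the opposite strand started within 1000 bases of 24 of the 70 symbols (34.3%). The share was 11.9% over 17754 protein-coding symbols of the table. Of the 22 pairs with a value for both genes, the splicing gene was the more active in 20. The medians were 3.12 RPKmM for the splicing genes and 1.08 for their neighbours. Of the 81 active splicing entries 78 lay above the median of all active entries, 0.87, whether paired or not. The count of 20 was not compared with pairings to unrelated genes, so it is not a result about shared promoters. The starts of Hnrnpa2b1 and Cbx3, which encodes the heterochromatin protein HP1 gamma, are 466 bases apart. The human counterpart of this region is known as a ubiquitous chromatin opening element, used to protect transgenes from silencing. Here Hnrnpa2b1 was at 113.32 and Cbx3 at 1.42, a quotient of 79.8.

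Hnrnpa1 and Cbx5, which encodes HP1 alpha, form a pair of the same kind, 698 bases apart. Hnrnpa1 had entries at 83.3 (non-coding) and 29.18 (coding), and the more active entry of Cbx5 was at 16.48. Both genes were thus active, and the values of their entries did not overlap. Quotients of 10 or more were also listed for Hnrnph3 at 17.63 beside Pbld2 at 0.02, Hnrnpdl at 30.89 beside Enoph1 at 0.75, and Snrnp200 at 2.35 beside 1810024B03Rik at 0.14. The neighbour was the more active in the pairs of Prpf6 at 1.99 with Znf512b at 2.94 and of Sf3a2 at 3.2 with Plekhj1 at 5.34. Ttc39d, beside Srsf7, was listed as inactive. A start shared between strands was thus found with near-equal activity, as for Snrpd2 at 1.47 and Qpctl at 1.39, and with very unequal activity.

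**Figure D4:**
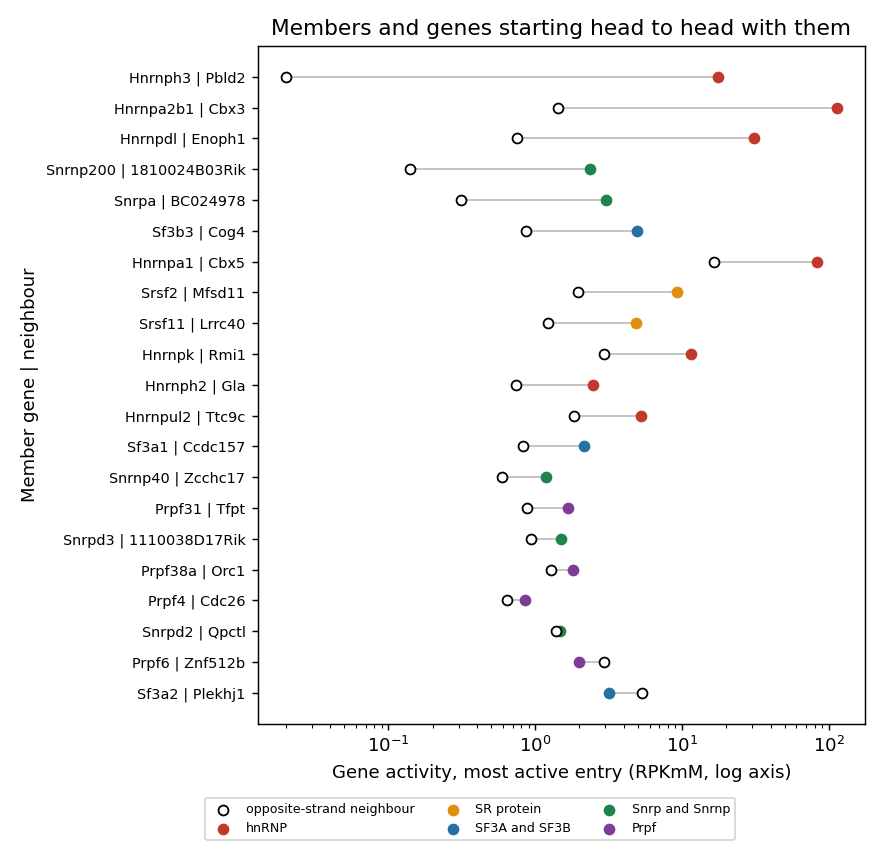
Gene activity (RPKmM, log axis) of splicing genes (filled, coloured by family) and of the opposite-strand genes that start within 1000 bases (open), each by its most active entry, for 21 of the 22 pairs with both values. The filled point lies to the right in 19 of the pairs drawn, and farthest from its neighbour for Hnrnph3 (17.63 against 0.02), while Prpf6 and Sf3a2 lie to the left. Starts are those of the annotated genes, and the Prpf6 pair does not hold by its RefSeq start.

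Some splicing genes also host small RNA genes on the same strand, namely 5 of the 70 symbols (7.14%), beside 4.92% of protein-coding symbols. They are Hnrnpk with Mir7-1, Sf3a3 with Mir697, and Prpf39, Sf3b3 and Sf3b4 with snoRNA genes. Reads from the host transcript and from the small RNA precursor cannot be told apart here. The mature miRNAs of the miRNA hosts are shown because their precursor genes lie within the annotated hosts, with the seed (bases 2 to 8) in capitals, from the RefSeq miRNA table.
mmu-miR-7a-5p in Hnrnpk: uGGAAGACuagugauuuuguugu
mmu-miR-7a-1-3p in Hnrnpk: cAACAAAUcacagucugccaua
mmu-miR-697 in Sf3a3: aACAUCCUgguccuguggaga
None of the 3 shares its seed with another. The hosts stood at 11.46 RPKmM (the highest of the 3 Hnrnpk entries) and 9.42 (Sf3a3). The mature miRNAs themselves were not measured by this assay.

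Copies elsewhere in the genome can matter for these genes, since only uniquely mapped reads were counted and many splicing genes have processed pseudogenes. At 90% identity or more over at least 80% of the coding sequence, 28 of 70 symbols had another locus in mm9. These were 13 of 31 hnRNP or SR symbols and 15 of 39 of the others. Genes outside the name rule were not counted in this way, so it is not known whether copies are more common here. Hnrnpa3 had 21 such loci, Snrpc 14 and Hnrnpa1 6. Srsf1, Hnrnpu, Hnrnph1 and Srsf6 had none, and Hnrnpa2b1 had 1 without introns. Exonic reads that match a copy equally well are not counted for either locus, so the values of genes with copies are less certain. The length in each value also counts mappable bases only, and how far copies moved the values was not tested.

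Other splicing genes outside the name rule gave a scale for these values. Over 10 further lists without the genes above, 158 of 169 entries (93.5%) were active, with a median of 2.65 RPKmM, and 20 (11.8%) reached 10. The list of FET, DBHS and other RNA-binding proteins had the highest median, 8.38 over 17 entries, with Tardbp (TDP-43) at 87.41 and Sfpq, a paraspeckle protein, at 52.43 and 47.94, and with Elavl1 at 2.98 and Raly at 3.55 as the lowest genes by their most active entry. Helicases of the spliceosome followed with a median of 5.24 over 16 entries, led by Ddx5 at 24.93 and Dhx9 at 23.73, with Dhx8 at 1.39 and Aqr at 1.12 and 1.08 below. These were the highest medians of the 10 lists.

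SR-related proteins and SR kinases had a median of 4.46 RPKmM, with Srrm2, a scaffold of nuclear speckles, at 41.1 and Tra2a at 14.26. Their lowest genes were the neuronal factors Srrm4, listed as inactive, and Srrm3 at 0.01. Branch point and 3' splice site factors had a median of 4.14, from Sf1 at 9.98 and U2af1 at 8.71 down to Phf5a at 1.61 and U2af1l4 at 0.81. Exon junction complex genes had a median of 2.75, from Magoh at 7.15 and Rbm8a at 7.11 to Eif4a3 at 0.94 and Magohb at 0.68. Prp19 complex genes had a median of 2.14, from Bcas2 at 7.91 and Bud31 at 4.89 and 4.75 to Ctnnbl1 and Cwc15, each at 0.56.

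By their medians, the genes that assemble snRNPs and the LSm genes lay below the Sm genes, whose median was 2.02. SMN complex genes had a median of 1.39 RPKmM, with the methyltransferase pair Prmt5 at 8.69 and Wdr77 at 4.38 above and Gemin8 at 0.62 and Gemin7 at 0.6 below. LSm genes, most of which encode subunits of the ring on U6 RNA or of the related ring that acts in mRNA decay (Lsm1), had a median of 1.39, from Lsm7 at 1.79 and Lsm6 at 1.77 to Lsm3 at 0.61 and Lsm1 at 0.43. The minor spliceosome list, which holds 3 of the genes above, had a median of 1.69, with Zrsr2 at 5.92 and 3.06 as its highest gene and Zmat5 at 0.39 beside Snrnp25 at 0.38 as its lowest.

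Tissue-regulated splicing factors were the exception to the near-complete activity of splicing genes. Of their 41 entries 31 (75.6%) were active, beside 70.2% of the table, with a median of 1.85. Factors known in muscle or in many tissues were active, with Rbfox2 at 10.71 and 5.89, Celf1 at 6.55, Mbnl1 at 6.5 and 5.52, Mbnl2 at 6.31 and Qk at 5.65 and 4.8. No entry was active for Celf3, Nova1 and Rbfox3, which are known from neurons, or for Esrp1 and Esrp2, which are known from epithelia. Other factors known from neurons were listed as active, with Ptbp2 at 2.84, an entry of Celf4 at 0.09, Celf5 at 0.06 to 0.07, Nova2 at 0.04, Celf6 at 0.02 and 0.01 and Khdrbs2 at 0.01, so neuronal factors were not uniformly inactive. Rbm24, a muscle factor, was at 0.21, and Rbfox1, which is known in mature muscle and brain, was at 0.02 and 0.01. Mbnl1, Mbnl2, Qk, Rbm24, Ptbp2, Nova2, Celf4 and Celf5 lie outside the rule for naming genes and were picked once their values had been seen.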

How the data were processed

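GRO-seq libraries of untreated C2C12 myoblasts were made by the authors in 2 replicates and pooled. Per the methods of the study and the labels, reads were mapped to mm9 with Bowtie2 (version not given in the sources used here; the submitters' notes also name CASAVA 1.8), reads that were not mapped uniquely with high quality were trimmed from the 3' end and mapped again, only reads that met this at some length were kept, and reads at rRNA and tRNA repeats were discarded. The authors deposited 1 value per RefSeq entry, gene activity in RPKmM, which is RPKM over mappable bases, or the word Inactive. The lack of a value per library hides the spread between replicates, and values are rounded to 2 decimals.

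No value was transformed. Counts, medians, quotients and rank correlations over entries were computed, with no test, since genes are not replicates. Thresholds were 1, 10 and 100 RPKmM. An alternative was taken as moved beyond 1.5 times, or beyond 0.1 for a correlation. Gene positions came from GENCODE vM1 on NCBIM37, the same build as mm9, by symbol (22721 entries, 94%, had 1 gene), promoter and miRNA sequences came from RefSeq tables, and coding sequences were aligned to the genome with minimap2 2.31. Other tools were Python 3.11.15, numpy 2.4.6, pandas 2.3.3, scipy 1.17.1 and matplotlib 3.10.9. Only the count of active members and the quotient of medians were tested on simulated data. In each role group the 3 most and 2 least active symbols were named, with every symbol that has an inactive entry or differing entries, and the 2 most and 2 least active of each further list; 1 member counted in the totals is not reported here by name or in the plot of pairs. The name rule uses no measured value, but it, the further lists and the role groups were proposed with earlier results of these data known. Alternatives were 1 entry per symbol, a minimum of 0.1 RPKmM, spans of at least 10 kb, inactive entries kept at 0, geometric means with a pseudocount of 0.01 or 0.1, the hnRNP genes, the SR genes or all the others left out, and Snrpn added. The alternatives with 1 promoter per symbol, with 1 entry per symbol in the further lists, with only protein-coding genes as background, and without Hnrnpf in the correlation and the span classes were chosen after seeing the data.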

Additional observations from a re-analysis of the deposited data

How the results depend on the processing

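Of 57 alternative values over 10 results, 42 kept within 1.5 times of the reported value (0.1 for a correlation) and 15 moved. A change of direction was looked for in the correlation with span alone, and none was found there. With inactive entries kept at 0 the quotient of the medians rose to 15.85, and with geometric means and a pseudocount of 0.01 it was 9.39. Among genes of at least 10 kb there were 52 active entries, 49 at 1 RPKmM or above and 15 at 10 or above, since fewer entries enter. Without hnRNP genes the median was 2.61, the quotient 3, and 49 entries reached 1 and 8 reached 10. Without SR genes the median was 3.2 and the quotient 3.68. Without the SF3, Snrp, Snrnp and Prpf genes 39 entries were active and 39 reached 1, with a median of 11.2 and a quotient of 12.9.

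No paired analysis was possible because the deposited value pools both libraries, and no library was left out for the same reason. Rounding to 2 decimals limits the least active entries, of which 154 are listed at 0, and the table gives no number of reads behind a value.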

Other observations

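Snrpn, which the name rule leaves out, encodes SmN, a relative of SmB made mainly in neurons, and it lies in an imprinted region. Its 3 entries were at 0.22, 0.06 and 0.05 RPKmM, all below the lowest active gene of the name rule, Snrnp25 at 0.38, and below Snrpb at 5.58.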
